A study of Homo sapiens with 6 samples.

Results

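The genes described here were the superoxide dismutases SOD1 and SOD2, the catalase CAT, the glutathione peroxidases GPX1, GPX4 and GPX8, and the peroxiredoxins PRDX1, PRDX2, PRDX3 and PRDX5. They were taken by gene name from the deposited expression table, which held 34738 genes, and all 10 were found and passed the filter on low values (a mean of at least 1 FPKM over the 6 libraries, which kept 11867 genes). FPKM is a level per transcript length and per sequencing depth, and a comparison between genes on it depends on the transcript length used. The set was chosen by gene family with the FPKM values and fold changes of siGDF15 against NC already known. That difference, and the number of these genes called in the comparison of all genes, are therefore descriptions and not a test of the set. The study compared thyroid cancer cells transfected with an siRNA against GDF15 (siGDF15), a short duplex that directs degradation of the matching mRNA, with control cells (NC). There were 3 libraries per group, which the methods call biological replicates. The labels name the human thyroid cancer cell line KHM-5M for all 6 libraries, give the genotype as control or GDF15, and state no time after transfection, while one heatmap legend of the study names the line TPC-1. The control was described as a blank control in the deposited design and as negative control cells in the methods. The methods also list the sequence of a negative control siRNA beside that against GDF15. These descriptions differ, so whether the NC cells sequenced received an siRNA is not settled here. If they did not, transfection and GDF15 knockdown cannot be told apart.

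These enzymes remove reactive oxygen species in successive steps. Superoxide dismutases turn superoxide into hydrogen peroxide, and catalase, glutathione peroxidases and peroxiredoxins reduce that peroxide to water. Catalase works in peroxisomes without a thiol partner. Glutathione peroxidases such as GPX1 and GPX4 take electrons from glutathione, and most peroxiredoxins take them from thioredoxin. The thyroid makes hydrogen peroxide for hormone synthesis through dual oxidases, and thyroid tissue is known for its high selenium content, part of which sits in the selenocysteine of glutathione peroxidases.

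The reference sequence around the active site codon of each peroxidase is shown to tell the enzymes that carry selenocysteine from those that carry cysteine. The windows below hold 27 bases of coding sequence from GENCODE release 29 on GRCh38, written 5′ to 3′ along the transcript, with the active site codon in capitals.
GPX1: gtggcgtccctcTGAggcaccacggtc
GPX4: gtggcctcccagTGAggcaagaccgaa
GPX8: gtggccagtgacTGCcaactcacagac
PRDX1: ttcacctttgtgTGCcccacggagatc
PRDX2: ttcacttttgtgTGCcccaccgagatc
PRDX3: ttcacctttgtgTGTcctacagaaatt
PRDX5: ttcacccctggaTGTtccaagacacac

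In GPX1 (chr3:49358120-49358146, minus strand, exon 1 of 2) and in GPX4 (chr19:1105391-1105417, plus strand, exon 3 of 7) the capitals mark TGA, which is annotated as selenocysteine at codon 49 and codon 73. In GPX8 (chr5:55161012-55161038, plus strand, exon 2 of 3) the matching codon 79 is TGC, which encodes cysteine, and no selenocysteine is annotated. The 2 selenium enzymes shared 19 of the 27 bases with each other, and each shared 13 with GPX8. In the peroxiredoxins the capitals mark the codon of the cysteine that reacts with peroxide, which is codon 52 in PRDX1 (chr1:45515746-45515772, minus strand), codon 51 in PRDX2 (chr19:12801008-12801034, minus strand), codon 108 in PRDX3 and codon 100 in PRDX5. The windows of PRDX3 (chr10:119173848-119174452, minus strand) and PRDX5 (chr11:64319848-64320666, plus strand) each join the ends of 2 exons. PRDX1 and PRDX2 were identical at 25 of the 27 bases, whereas PRDX5 shared 15 with PRDX1 and 13 with PRDX2. The RefSeq promoter windows (GRCh38.p14, 250 bases before to 50 after a start site) covered 8 of the 10 genes with 14 windows. SOD1 and PRDX1 had no window and were not searched. None of the 14 windows held the antioxidant response element core TGACNNNGC, searched on both strands, while 13.3% of all 35116 windows did. By gene, none of the 8 held it, while 16.1% of all 27305 genes did. No match says only that these letters are not in these windows.

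Expected counts, which the authors derived from transcript coverage, summed to between 67569576 and 68025163 in NC and to between 51738814 and 67793417 in siGDF15, with the lowest total in siGDF15 replicate 2. GDF15, the targeted gene, had 22.4, 19.3 and 23.1 FPKM in NC and 10.8, 10.5 and 10.7 FPKM in siGDF15. By edgeR it fell by 0.92 on the log2 scale (adjusted p = 2.4e-05, standard error 0.079). Mitochondrially encoded genes held 6.39 to 6.78% of counts in NC and 8.53 to 9.17% in siGDF15, and their part in the differences below was not tested. Of the thyroid follicular cell markers reported here, PAX8 and FOXE1 (2.53 to 2.94 FPKM) were expressed, and TSHR and IYD had no entry in the table. PAX8 had 54.3 to 64.9 FPKM in NC and 77.5 to 80.4 FPKM in siGDF15. TG, SLC5A5, SLC26A4 and NKX2-1 were at most 0.219 FPKM in every library, so these markers of the differentiated thyroid were at or near 0. Within that range TG had 0.0346 to 0.0708 FPKM in NC and 0.162 to 0.219 FPKM in siGDF15. The part of PAX8 and TG in the differences below was not tested. Of the other marker lists, all 5 epithelial genes and 5 of 6 fibroblast genes passed the filter, among them KRT18 at 78.1 to 109 FPKM and COL3A1 at 13.7 to 16.9 FPKM. Of the leukocyte genes reported here, PTPRC and CD3E were at most 0.0151 FPKM, while CD14 had 0.249, 0.242 and 0.107 FPKM in NC and 0.739, 0.682 and 0.592 FPKM in siGDF15. CD14 was thus low but higher in every siGDF15 library, and its part in the differences below was not tested. The endothelial genes were at most 0.161 FPKM.

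SOD2, CAT, GPX4, GPX1, PRDX5 and PRDX1 were higher in siGDF15 than in NC, by between 1.27-fold for PRDX1 and 4.56-fold for SOD2, and GPX8 was lower by 1.61-fold. SOD1, PRDX2 and PRDX3 differed by at most 0.09 on the log2 scale in either direction. By edgeR's quasi-likelihood test with Benjamini-Hochberg adjustment over all genes tested, 6 of the 10 genes were higher at an adjusted p under 0.05, where the share over all tested genes was 30.0%, and 1 was lower, where it was 31.4%. In both directions together 7 of the 10 were called, and the share over all tested genes was 61.4%. Among all genes called, 48.9% were higher, and 36.6% when libraries were scaled by their total count alone. The median log2 fold change was 0.47 over the 10 genes and 0.0026 over all tested genes. With the study's further requirement of a log2 fold change of at least 1, SOD2 and CAT remained, beside 3.03% of all tested genes in that direction and 7.81% in either, and no gene of the 10 was lower by that much, beside 4.78%. These counts follow from how the genes were chosen and are given as a description. As the RNA was taken from whole cultures, more cells with a transcript and more transcript per cell cannot be told apart.

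**Figure D1:**
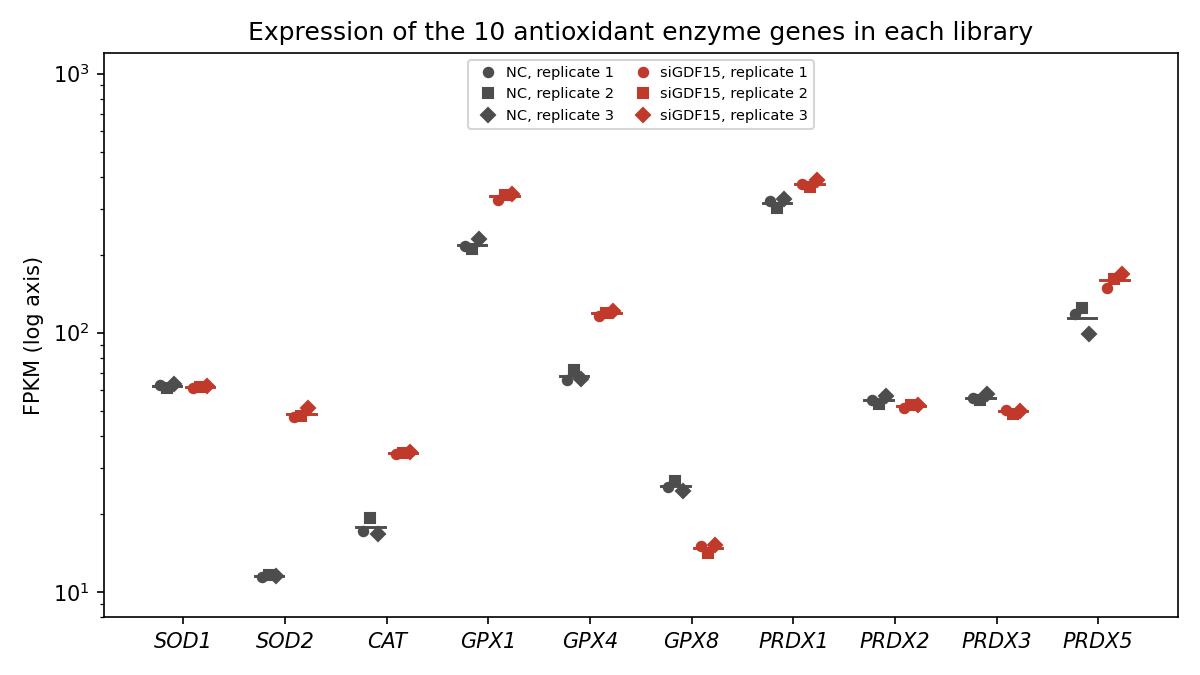
FPKM (log axis) of the 10 genes in each library, with circles, squares and diamonds for replicates 1, 2 and 3, grey for NC, red for siGDF15 and a bar at each group mean (n = 3). The 2 groups stand apart most for SOD2, from 11.5 to 48.6 FPKM, and lie within the same range for SOD1.

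The superoxide dismutases differed from each other. SOD2 (ENSG00000112096, GRCh38, chromosome 6 from 159669069 to 159727353, minus strand) encodes the manganese enzyme of the mitochondrial matrix. It had 11.4, 11.6 and 11.5 FPKM in NC and 47.1, 47.6 and 51.0 FPKM in siGDF15. Every siGDF15 library was more than 4 times every NC library, and the replicates within each group were close together. The log2 fold change was 2.19 (standard error 0.046), larger than that of 99.7% of the tested genes, with 34 genes above it. SOD1 (ENSG00000142168, chromosome 21 from 31659666 to 31668931, plus strand) encodes the copper and zinc enzyme of the cytosol. It had 63.0, 60.9 and 63.2 FPKM in NC and 61.2, 61.6 and 62.1 FPKM in siGDF15, so the groups overlapped. Its log2 fold change was 0.09 (standard error 0.042) after TMM normalization, and -0.014 when counts were scaled by their total alone. On TMM-scaled CPM, which is the count relative to library size, the siGDF15 libraries of SOD1 lay at 138 to 142 and the NC libraries at 128 to 134, so whether its groups overlap depended on the scaling.

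The ratio of SOD1 to SOD2 in FPKM is free of library scaling, since both values come from 1 library. It was 5.55, 5.25 and 5.51 in NC and 1.30, 1.29 and 1.22 in siGDF15. SOD1 thus exceeded SOD2 in all 6 libraries by FPKM, and by less in every siGDF15 library. The order of these 2 genes depends on the transcript length used, because the expected counts per FPKM of SOD2 were 9.19 times those of SOD1, and annotated coding transcripts of SOD2 run from 507 to 14266 bases. By expected counts, with no division by length, SOD2 had a mean of 15616 in NC against 9240 for SOD1. The 5′ end of SOD2 overlaps the start of WTAP on the opposite strand. WTAP had 10.2 to 10.4 FPKM in NC and 10.2 to 10.9 FPKM in siGDF15, a difference of 0.14 on the log2 scale (standard error 0.048, adjusted p = 0.030 from edgeR). The libraries were prepared with dUTP, which marks the strand, but whether the counting used it is not stated.

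**Figure D2:**
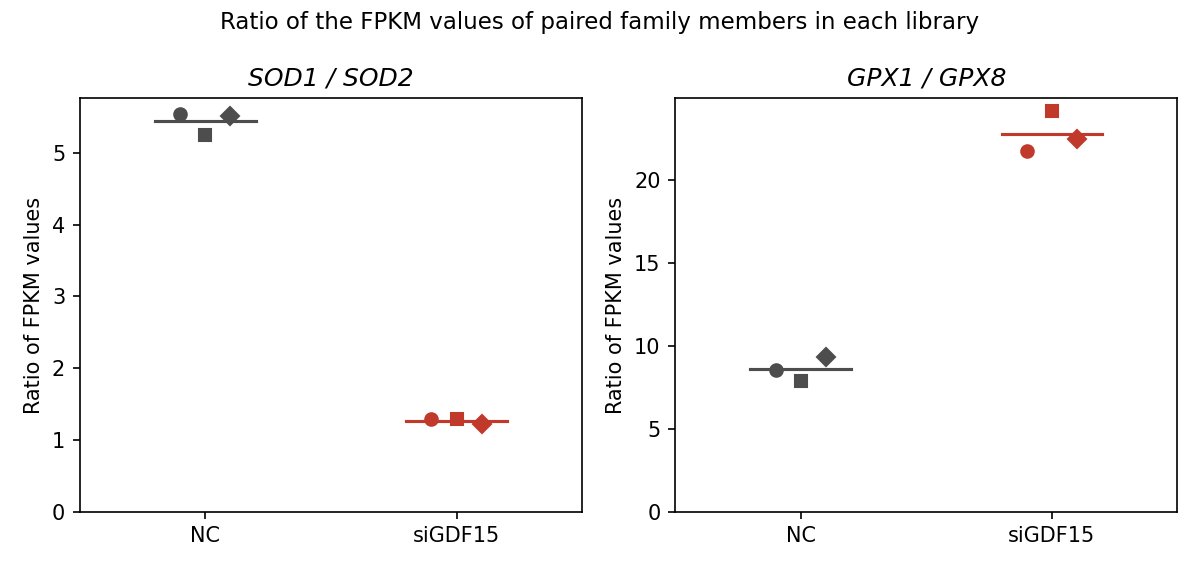
Ratio of FPKM values within each library (linear axis from 0) for SOD1 over SOD2 and for GPX1 over GPX8, with circles, squares and diamonds for replicates 1, 2 and 3 and a bar at each group mean (n = 3). The first ratio lies between 5.25 and 5.55 in NC and between 1.22 and 1.30 in siGDF15, and the second between 7.86 and 9.35 in NC and between 21.7 and 24.1 in siGDF15.

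CAT (ENSG00000121691, chromosome 11 from 34438934 to 34472060, plus strand) encodes catalase, the peroxisomal enzyme that breaks down hydrogen peroxide. It had 17.1, 19.3 and 16.7 FPKM in NC and 34.0, 34.5 and 34.5 FPKM in siGDF15. All siGDF15 libraries were above all NC libraries, with NC replicate 2 the highest of its group. Its log2 fold change of 1.06 (standard error 0.058) was only just past 1, with values of 0.96 under scaling by the total count and 0.92 under limma on log2 of FPKM plus 1, which leaves SOD2 alone past the study's fold threshold. GPX4, with 0.91, was the next gene below it.

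Among the glutathione peroxidases of the set, the 2 selenium enzymes were higher in siGDF15 and the cysteine enzyme was lower. GPX8 was the only cysteine enzyme among them, and a link between the residue and the direction was not tested. GPX4 (ENSG00000167468, chromosome 19 from 1103994 to 1106779, plus strand) reduces lipid hydroperoxides in membranes and protects cells from ferroptosis. It had 65.6, 72.0 and 66.4 FPKM in NC and 116, 119 and 121 FPKM in siGDF15, a log2 fold change of 0.91 (standard error 0.049). GPX1 (ENSG00000233276, chromosome 3 from 49357176 to 49358353, minus strand) is the abundant enzyme of cytosol and mitochondria that reduces hydrogen peroxide. It had 216, 210 and 230 FPKM in NC and 326, 340 and 342 FPKM in siGDF15, a log2 fold change of 0.72 (standard error 0.052). For both genes every siGDF15 library was above every NC library. The processed pseudogene GPX1P1 (chromosome X from 13378735 to 13379340) had 21.7 to 24.0 FPKM in NC and 35.4 to 38.0 FPKM in siGDF15, so reads of near-identical sequence may be split between the 2 loci. With the counts of GPX1P1 added to those of GPX1, a setting chosen after seeing the data, the log2 fold change was 0.73.

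GPX8 (ENSG00000164294, chromosome 5 from 55160167 to 55167297, plus strand) encodes a membrane protein of the endoplasmic reticulum, where it acts on peroxide formed during oxidative folding. It had 25.3, 26.7 and 24.6 FPKM in NC and 15.0, 14.1 and 15.2 FPKM in siGDF15. The groups did not overlap, and siGDF15 lay below NC, the reverse of GPX1 and GPX4. The log2 fold change was -0.68 (standard error 0.049), with 9.81% of tested genes lower still. The ratio of GPX1 to GPX8 in FPKM was 8.57, 7.86 and 9.35 in NC and 21.7, 24.1 and 22.5 in siGDF15, and the groups did not overlap.

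The peroxiredoxins ranged from higher to nearly level. PRDX5 (ENSG00000126432, chromosome 11 from 64318121 to 64321811, plus strand) encodes an enzyme found in mitochondria, peroxisomes and cytosol. It had 118, 125 and 98.7 FPKM in NC and 149, 161 and 169 FPKM in siGDF15, a log2 fold change of 0.59 (standard error 0.086). NC replicate 3 was the lowest, and the SD of 13.6 FPKM in NC was the largest of the 10 genes relative to its mean. PRDX1 (ENSG00000117450, chromosome 1 from 45510914 to 45523047, minus strand), the main cytosolic peroxiredoxin, had 323, 303 and 327 FPKM in NC and 376, 364 and 388 FPKM in siGDF15, a log2 fold change of 0.35 (standard error 0.048). All siGDF15 libraries were above all NC libraries for both genes.

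PRDX2 (ENSG00000167815, chromosome 19 from 12796820 to 12801789, minus strand) is also cytosolic, and had 54.8, 53.2 and 56.9 FPKM in NC and 51.4, 52.8 and 52.8 FPKM in siGDF15. By FPKM the siGDF15 libraries lay just below the NC libraries, while on TMM-scaled CPM they overlapped, at 119 to 125 against 115 to 125. Its log2 fold change was accordingly 0.03 (standard error 0.047) with TMM and -0.067 with scaling by the total count. The lncRNA gene ENSG00000267062 overlaps PRDX2 on the opposite strand, with 103 to 104 counts in each NC library and none listed in any siGDF15 library, where 0 allows up to 12 counts (3 read pairs, with 1 read pair taken as 4 counts). These are few beside the 6198 to 8674 counts of PRDX2. HOOK2, which overlaps it on the same strand, had 847 to 1201 counts. PRDX3 (ENSG00000165672, chromosome 10 from 119167720 to 119178812, minus strand), the mitochondrial thioredoxin-dependent enzyme, had 55.7, 54.8 and 58.0 FPKM in NC and 50.5, 48.7 and 49.8 FPKM in siGDF15. The siGDF15 libraries were below the NC libraries on both scales, but the log2 fold change was small, -0.07 (standard error 0.044), and -0.18 with scaling by the total count. Apart from GPX1P1, no named pseudogene of these genes exceeded 0.319 FPKM in any library.

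**Figure D3:**
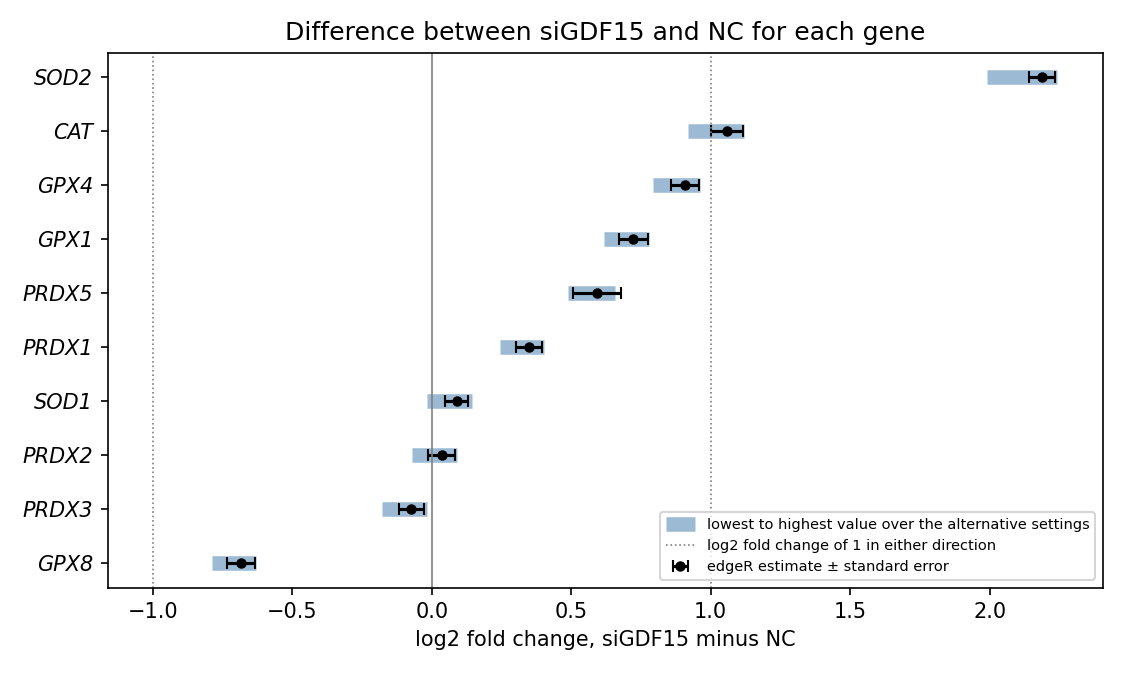
The log2 fold change of each gene (siGDF15 minus NC, edgeR with TMM), with its standard error as a bar and, in blue, the lowest to the highest value over the alternative settings. The bands of SOD1 and PRDX2 span 0, that of CAT spans 1, and GPX8 (-0.79 to -0.63) and PRDX3 (-0.18 to -0.019) are the ones that lie wholly below 0.

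Across the 10 genes the groups did not overlap on TMM-scaled CPM in 7 genes that were higher and 2 that were lower, beside 33.8% and 34.1% of all tested genes and 67.9% in either direction. PRDX2 was the gene whose groups overlapped on that scale.

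The order of the levels, per length in FPKM, was led in both groups by PRDX1, GPX1, PRDX5, GPX4 and SOD1. In NC they were followed by PRDX3, PRDX2, GPX8, CAT and SOD2, and in siGDF15 by PRDX2, PRDX3, SOD2, CAT and GPX8. Neighbours in this order did not overlap in their libraries except PRDX3 and PRDX2 in NC and PRDX3 and SOD2 in siGDF15. PRDX1 exceeded 99.4% of tested genes in NC, and SOD2, the lowest of the 10 there by FPKM, exceeded 70.0%. By expected counts, which are not divided by length, SOD2 instead stood behind only PRDX1 and GPX1 in NC, with a mean of 15616 against 40070 for PRDX1 and 19329 for GPX1, and first in siGDF15, with 61102, so its place in the order rests on the length used. By FPKM in siGDF15 SOD2 exceeded 94.6% and GPX8, which had moved to the last place, 79.0%. Summed over the 10 genes the level in NC was 947 FPKM with an SD of 8.51, and in siGDF15 it was 1251 FPKM with an SD of 30.1 (n = 3 each). That made up 0.360 to 0.368% of all FPKM in an NC library and 0.433 to 0.454% in a siGDF15 library. The 3 glutathione peroxidases summed to 307, 309 and 321 FPKM in NC and to 457, 472 and 478 FPKM in siGDF15. The 4 peroxiredoxins summed to 552, 536 and 540 FPKM in NC and to 627, 626 and 659 FPKM in siGDF15, which was 1.17 times as high on average. Both sums were higher in every siGDF15 library than in any NC library.

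The lists of other genes described from here on were also chosen with earlier results of these data known, so their counts are descriptions. The rest of the same families comprised SOD3, GPX2, GPX3, GPX5, GPX6, GPX7, PRDX4 and PRDX6. GPX5 and GPX6 had no entry in the table, and SOD3 (0.413 to 0.672 FPKM) and GPX7 (0.233 to 0.395 FPKM) were too low to be tested. Of the 4 tested, 3 rose and none fell, with a median log2 fold change of 0.38, beside 30.0% of all tested genes called higher and 31.4% called lower. PRDX4, the peroxiredoxin of the endoplasmic reticulum, rose from 37.9, 38.0 and 40.6 FPKM to 51.7, 48.6 and 53.8 FPKM (log2 fold change 0.51, standard error 0.054, adjusted p = 7.5e-05 from edgeR). PRDX6, which uses glutathione and also has phospholipase activity, rose from 93.3, 94.7 and 102 FPKM to 106, 109 and 108 FPKM (log2 fold change 0.26, standard error 0.052, adjusted p = 0.0026 from edgeR). GPX8 and PRDX4, both enzymes of the endoplasmic reticulum, were thus on opposite sides, with no overlap between groups in either. GPX2, known as the gastrointestinal enzyme, had 1.79, 1.86 and 3.97 FPKM in NC and 3.55, 5.42 and 5.10 FPKM in siGDF15 (log2 fold change 0.99, standard error 0.33, adjusted p = 0.028 from edgeR), and its groups overlapped. Its adjusted p was 0.092 without NC replicate 1, 0.061 without NC replicate 2, 0.091 without siGDF15 replicate 2 and 0.079 without siGDF15 replicate 3, so the call rested on each of these 4 libraries. With no filter the adjusted p of GPX2 was 0.076 from edgeR. GPX3 had 1.17 to 1.60 FPKM in NC and 1.30 to 1.45 FPKM in siGDF15 (log2 fold change 0.15, standard error 0.16, adjusted p = 0.43 from edgeR).

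The thioredoxin system supplies electrons to the peroxiredoxins. Of its 9 tested genes 4 rose, 2 fell and 3 did not pass the test, with a median log2 fold change of -0.04, and the 6 called of 9 lie near the 61.4% of all tested genes. TXN2, the mitochondrial thioredoxin, rose by 0.29 (standard error 0.053, adjusted p = 0.0017 from edgeR). TXNIP, which binds and inhibits thioredoxin, rose by 0.60 (standard error 0.13, adjusted p = 0.0033 from edgeR), from 21.0 to 30.8 FPKM in NC to 34.2 to 39.6 FPKM in siGDF15. TXNRD1, the cytosolic thioredoxin reductase, rose by 0.22 (standard error 0.067, adjusted p = 0.022 from edgeR). It lost its call under scaling by the total count (adjusted p = 0.17) and without siGDF15 replicate 1, 2 or 3 (adjusted p = 0.066, 0.059 and 0.064). By edgeR its adjusted p was also 0.064 with a filter of 0.1 FPKM and 0.18 with no filter. By limma on log2 of FPKM plus 1 or 0.1 it was 0.17. SRXN1, the sulfiredoxin that repairs over-oxidised peroxiredoxins, had 43.0, 40.7 and 51.3 FPKM in NC and a mean of 28.7 FPKM with an SD of 0.640 in siGDF15, and fell by 0.54 on the log2 scale (standard error 0.086, adjusted p = 7.4e-04 from edgeR). SESN1, a sestrin, fell by 0.41 on the log2 scale (standard error 0.098, adjusted p = 0.0069 from edgeR). TXN, the cytosolic thioredoxin, was named after its values were seen and had 190 to 229 FPKM in NC and 187 to 195 FPKM in siGDF15, a log2 fold change of -0.04 (standard error 0.072), and did not pass the test (adjusted p = 0.62 from edgeR). SESN3, at 0.157 to 0.305 FPKM, was not tested.

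The glutathione system serves glutathione peroxidases such as GPX1 and GPX4. Of 12 tested genes 1 rose, 7 fell and 4 did not pass the test, with a median log2 fold change of -0.29, beside 31.4% of all tested genes called lower and 30.0% called higher. CHAC1, which degrades glutathione, fell from 19.8, 16.7 and 16.3 FPKM to 4.42, 3.16 and 4.35 FPKM (log2 fold change -2.03, standard error 0.13, adjusted p = 5.2e-06 from edgeR). SLC7A11, the cystine importer, fell from 4.62, 4.07 and 4.78 FPKM to 1.34, 1.20 and 1.19 FPKM (log2 fold change -1.75, standard error 0.085, adjusted p = 1.4e-06 from edgeR). GCLM, the modifier subunit of the enzyme that makes the first step of glutathione synthesis, fell by 0.70 on the log2 scale (standard error 0.064, adjusted p = 3.3e-05 from edgeR). The genes that fell thus included one that breaks glutathione down, others that help to make it, and the glutaredoxins GLRX2, GLRX3 and GLRX5. The log2 fold changes were -0.35 for GLRX2, -0.33 for GLRX3, -0.32 for GLRX5 and -0.26 for GSS. SLC3A2 (-0.06), GCLC (-0.08), GSR (-0.05) and GLRX (0.0008) did not pass the test (adjusted p of 0.31 or more from edgeR). GGT1, which cleaves extracellular glutathione, rose by 0.95 (standard error 0.15, adjusted p = 6.6e-04 from edgeR), from 0.784 to 1.09 FPKM in NC to 1.62 to 1.80 FPKM in siGDF15.

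GPX1 and GPX4 need the machinery that places selenocysteine at TGA codons, and 5 of its 7 listed genes were tested, with 2 rising, 1 falling and a median log2 fold change of -0.10, a share called near the 61.4% of all tested genes. SEPHS2, which makes the selenium donor, rose by 0.38 (standard error 0.048, adjusted p = 1.8e-04 from edgeR). SECISBP2, which binds selenoprotein mRNAs, rose by 0.24 (standard error 0.067, adjusted p = 0.014 from edgeR). SECISBP2 lost its call under scaling by the total count (adjusted p = 0.12), with no filter (0.093) and without NC replicate 1 (0.065, all edgeR). With limma on log2 of FPKM plus 1 or 0.1 its adjusted p was 0.17. SEPSECS (0.553 to 0.932 FPKM) and PSTK (0.386 to 0.564 FPKM) were not tested. SEPHS1, a relative of SEPHS2 without selenocysteine, fell by 0.58 on the log2 scale (standard error 0.061, adjusted p = 7.2e-05 from edgeR). Of 11 other selenoprotein genes tested 5 rose, 2 fell and 4 did not pass the test, with a median log2 fold change of 0.08, again near the 61.4% called among all tested genes. SELENOM rose most, from 7.96, 6.69 and 8.33 FPKM to 15.6, 16.7 and 17.7 FPKM (log2 fold change 1.23, standard error 0.095, adjusted p = 1.4e-05 from edgeR). SELENOF and SELENOS rose by 0.22 (adjusted p = 0.0033) and 0.38 (adjusted p = 0.0072 from edgeR). SELENOF missed the threshold under scaling by the total count (adjusted p = 0.051 from edgeR). It also missed it with limma on log2 of FPKM plus 1 or 0.1 (adjusted p = 0.056 and 0.055). SELENOK and SELENOI fell by 0.42 (adjusted p = 6.2e-04) and 0.37 (adjusted p = 0.0012 from edgeR) on the log2 scale. SELENOP, DIO1, DIO2 and DIO3 were at most 0.385 FPKM and were not tested, and SELENOV had no entry in the table.

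Copper reaches SOD1 through the chaperone CCS, and all 3 listed genes of copper delivery were tested, with 2 rising and 1 falling, beside 30.0% and 31.4% of all tested genes. ATOX1 rose by 0.36 (standard error 0.089, adjusted p = 0.0075 from edgeR). CCS rose by 0.30 (standard error 0.097, adjusted p = 0.026 from edgeR) and the importer SLC31A1 fell by 0.14 on the log2 scale (standard error 0.049, adjusted p = 0.034 from edgeR), but both calls were lost under several settings. The adjusted p of CCS was 0.071 without NC replicate 1, 0.057 without NC replicate 3 and 0.10 when siGDF15 replicate 3 was left out. It was 0.11 under scaling by the total count, 0.12 with no filter and 0.11 with limma at either pseudocount. That of SLC31A1 was 0.14 without NC replicate 1, 0.062 without NC replicate 2, 0.11 without siGDF15 replicate 1 and 0.099 when siGDF15 replicate 2 was left out. It was 0.16 with libraries scaled to the same median. Of 10 genes of the NADPH and dual oxidases, which produce superoxide and hydrogen peroxide, 2 were tested. CYBA, the membrane subunit shared by several of these oxidases, rose from 38.9, 41.3 and 36.6 FPKM to 49.1, 52.7 and 52.3 FPKM (log2 fold change 0.51, standard error 0.057, adjusted p = 1.0e-04 from edgeR). NOX5, named after its values were seen, had 16.9, 64.1 and 13.1 FPKM in NC and 55.9, 47.8 and 53.3 FPKM in siGDF15, and did not pass the test (adjusted p = 0.18 from edgeR). NC replicate 2 lay above all siGDF15 libraries and the other NC libraries lay below them. The thyroid oxidases DUOX1 and DUOX2, their maturation factors DUOXA1 and DUOXA2, and NOX1, NOX4 and CYBB were at most 0.105 FPKM in every library, and NOX3 had no entry in the table.

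**Figure D4:**
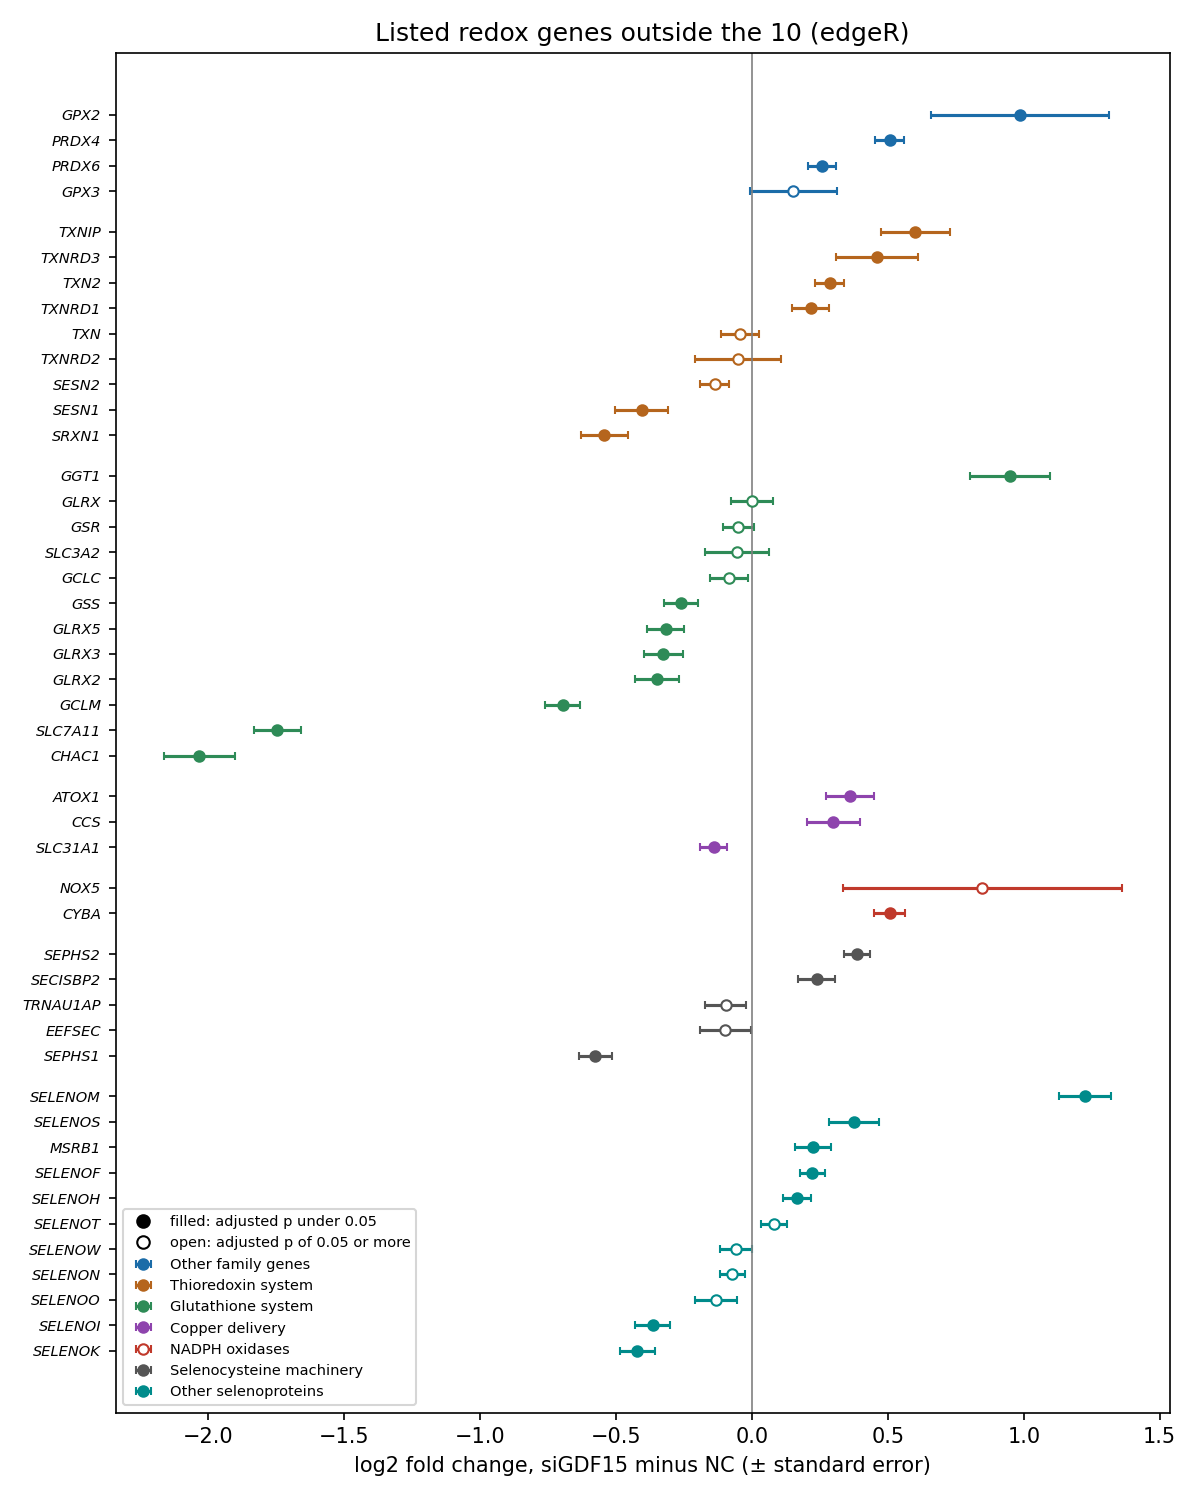
The log2 fold change (siGDF15 minus NC, edgeR) of each tested gene of the 7 lists outside the 10 genes, with standard errors as bars and filled points for an adjusted p under 0.05. The glutathione system extends farthest below 0, to -2.03 for CHAC1, and SELENOM lies highest at 1.23.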

How the data were processed

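Poly(A) RNA of 6 libraries was sequenced as read pairs. The submitters' processing notes name fastp, HISAT2, StringTie, edgeR and GRCh38, with no versions given in the sources used here. The authors deposited an FPKM value, adjusted for length and depth, and an expected count, a whole number that follows transcript coverage and was not normalized, for each gene and library. Both were used as deposited. FPKM serves for levels, and expected counts for tests with edgeR 4.0.16 (TMM, quasi-likelihood, two-sided, Benjamini-Hochberg) over the 11867 genes with a mean of at least 1 FPKM in R 4.3.3. The standard error is the size of the log2 fold change over the root of its F statistic. The fit was also run on simulated counts with known changes, whose outcome is not given here and is no support for the results. Alternatives were DESeq2 1.42.0, limma 3.58.1 on log2 of FPKM plus 1 or 0.1, other scalings and filters, the replicate number as a block, and each library left out. Among low counts 4 was the most frequent value, so 1 read pair was taken as 4 counts. This limit covers counting error only. The 10 genes and all lists were chosen with earlier results of these data known. Named genes were the 10, GDF15, the rest of their families, and of each other list up to 3 rising and 3 falling genes with the smallest adjusted p, listed genes that could not be tested, and pseudogenes or overlapping genes. TXN, NOX5, GSS, GLRX, GLRX2, GLRX3, GLRX5, GCLC, GSR and SLC3A2 lie outside this rule and were named after their values were seen. Gene positions are those of the deposited table. Active site codons came from GENCODE release 29 by a search for the conserved residues around them. No column of values per sample was left unused. Some listed marker genes are not reported here.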

Additional observations from a re-analysis of the deposited data

How the results depend on the processing

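The log2 fold changes of SOD2, CAT, GPX1, GPX4, GPX8, PRDX1 and PRDX5 had the same direction in all 14 alternatives tried. The 10 genes were chosen with these values known, so this and the counts of them called are a description and no support. Those of SOD1 and PRDX2 changed sign with scaling by the total count and with limma, and that of PRDX2 also with no filter. Under these settings the median over all genes moved to -0.099 (total count), -0.081 (limma, FPKM plus 1) and -0.0997 (limma, FPKM plus 0.1), and with no filter to 0.073, in the other direction. The number of the 10 genes called lower was 1, and 2 with scaling by the total count and with limma at either pseudocount, the second being PRDX3. It was 1 without each library in turn, where the number called higher was 6. With libraries scaled to the same median 7 were called higher, SOD1 being added. Over the other listed genes, also chosen with earlier results of these data known, 18 were called higher and 13 lower. The first was 11 with scaling by the total count, with no filter and with limma at either pseudocount, and between 12 and 18 without each library in turn. In these settings the number called lower was 19 (total count), 14 (no filter) and 18 (limma at either pseudocount), so that more were lower than higher. Of all tested genes called, 48.9% were higher, 36.6% with scaling by the total count and 55.8% with libraries scaled to the same median. CAT was below a log2 fold change of 1 with scaling by the total count and with limma. The TMM factors, which scaling by the total count leaves out, were 1.03 to 1.04 in NC and 0.958 to 0.972 in siGDF15. The cause of the shifts between settings was not tested. Same-numbered libraries did not deviate together (correlations of their deviations of 0.028, -0.075 and 0.046), so no shared effect of the replicate number was visible. Whether the libraries were paired by design cannot be read from these values. With the replicate number as a block 6906 genes were called, against 7286 without it, 6 and 1 of the 10 genes, and 17 and 12 of the other listed genes, with CCS (adjusted p = 0.052) and SLC31A1 (adjusted p = 0.076, both edgeR) no longer called. The lowest count of any of the 10 genes in any library was 3286, for GPX8.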
